A study of Mus musculus with 4 samples.

Results

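Germline genes that DNA methylation is known to keep silent in body cells were examined in lung endothelial cells from Dnmt3a knockout (KO) and wild-type (WT) mice. The set holds 35 named genes, all 35 matched by symbol among the 21887 protein-coding genes of the mm10 gene table. Open chromatin was mapped with ATAC-seq, a method that cuts and tags accessible DNA with a transposase, after lung endothelial cells had been isolated by flow sorting. There were 2 KO and 2 WT libraries, each deposited as a list of peak positions with no score or read count. Genotype was the only difference named in the labels, and the deleted allele, any Cre driver, strain, age and sex are not given in the sources used here. The question was whether germline genes gained open sites without Dnmt3a, which encodes an enzyme that places new DNA methylation.

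Many germline genes have promoters rich in CpG, the dinucleotide that DNA methyltransferases modify. Most CpG-rich promoters stay unmethylated in every tissue, but those of germline genes are methylated in the early embryo and stay silent outside the gonads. Repressors that read an E-box (CACGTG), such as MGA with MAX, and E2F6 are known to act on the same promoters before methylation is placed. The 35 genes serve meiosis (synaptonemal complex, cohesin, recombination), the piRNA pathway that silences transposons, and germ cell RNA control and transcription.

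On the autosomes, X and Y the KO lists had 85091 (replicate 1) and 100879 (replicate 2) peaks, and the WT lists had 101442 and 97627. Read depth was unknown, so a site missing from a list may still have been open. A site open in few cells and a site weakly open in all cells cannot be told apart in such pooled material. All 10 pan-endothelial genes tested had a peak within 1 kb of a gene end in every library. The same was so for 2 to 3 of 8 leukocyte, 4 to 5 of 6 epithelial and 4 to 5 of 6 fibroblast and mural markers, and the part of such cells in the results was not tested. KO replicate 2 stood apart in having peaks at 0 of 5 Y-linked genes, against 3 to 4 in the other libraries, and 3 rather than 1 peak at Xist. Whether replicate libraries stem from separate animals is not stated in the labels, and p-values cover only the spread between these libraries.

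The promoters that the results turn on are shown here, from RefSeq on GRCm38.p6 (mm10), 5′ to 3′ along each gene, with every CpG in capitals. Each is the part of the 250 bases before the RefSeq start that lies outside any annotated gene. Stk31 is shown because its start was open in the KO lists, and Smc1b because its start was open in the WT lists. Dmc1 is a germline promoter open in every list, and Taf7l and Sycp1 are CpG-rich promoters with no peak in any list.
Stk31, chr6:49395289-49395505, plus strand: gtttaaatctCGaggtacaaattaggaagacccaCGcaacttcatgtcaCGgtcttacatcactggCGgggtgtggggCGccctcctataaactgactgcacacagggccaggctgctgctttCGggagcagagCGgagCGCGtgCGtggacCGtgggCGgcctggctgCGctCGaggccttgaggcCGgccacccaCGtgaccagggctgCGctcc
Smc1b, chr15:85131958-85132059, minus strand: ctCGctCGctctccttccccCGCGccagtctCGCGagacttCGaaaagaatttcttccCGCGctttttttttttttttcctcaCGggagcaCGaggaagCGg
Dmc1, chr15:79605160-79605359, minus strand: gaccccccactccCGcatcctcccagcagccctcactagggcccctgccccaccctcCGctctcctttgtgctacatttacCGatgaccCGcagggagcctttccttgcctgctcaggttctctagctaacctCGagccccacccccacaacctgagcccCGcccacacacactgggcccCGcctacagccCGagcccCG
Taf7l, chrX:134476506-134476740, minus strand: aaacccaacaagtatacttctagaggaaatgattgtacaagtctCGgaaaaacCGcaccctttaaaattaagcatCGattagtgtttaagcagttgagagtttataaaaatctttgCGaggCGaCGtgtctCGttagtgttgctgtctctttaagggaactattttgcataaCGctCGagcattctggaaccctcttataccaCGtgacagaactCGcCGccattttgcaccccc
Sycp1, chr3:102936101-102936350, minus strand: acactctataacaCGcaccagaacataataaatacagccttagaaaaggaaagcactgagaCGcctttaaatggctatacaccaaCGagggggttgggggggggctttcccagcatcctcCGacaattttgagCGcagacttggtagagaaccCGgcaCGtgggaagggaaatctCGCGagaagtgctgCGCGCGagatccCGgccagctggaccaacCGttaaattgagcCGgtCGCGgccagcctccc
The 217 bases of Stk31 hold 17 CpGs and the 102 bases of Smc1b hold 12. The E-box letters are found as caCGtg in the Stk31, Taf7l and Sycp1 stretches and not in those of Smc1b and Dmc1.

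Stk31 was the germline gene with peaks in the KO lists alone. It encodes a testis-expressed protein kinase with a Tudor domain, the kind of domain found in partners of PIWI proteins (gene identifier 77485, chromosome 6, 49395506 to 49469506). A peak over its RefSeq start was 320 bp wide in KO replicate 1 and 472 bp wide in KO replicate 2, and neither WT list had a peak there. The merged region, at 49395316 to 49395787, was centred 12.5 bp inside the gene from the nearer of its 2 RefSeq starts. A further peak lay about 2 kb inside the gene, at 49397509 to 49397799, 201 bp wide in KO replicate 1 and 261 bp in KO replicate 2. KO replicate 1 alone had another peak of 201 bp at 49398327 to 49398527.

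In all, 3 and 2 peaks were listed for KO and 0 and 0 for WT in the Stk31 gene and the 5 kb on either side. It was the 1 member with peaks in that interval in the KO lists alone, found at 0.064% of all genes, and 0 members had them in the WT lists alone, found at 0.347%. The nearest WT peaks lay 20945 bp (WT replicate 1) and 27242 bp (WT replicate 2) from the start region. The start peak was of ordinary width for its list in KO replicate 2 (percentile 61.9) and narrow in KO replicate 1 (percentile 24.2). The inner peaks were narrower, at percentile 14.7 in KO replicate 2 and 1.98 in KO replicate 1. The smallest width in every list was 201 bp, which is the width of both inner peaks of KO replicate 1.

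**Figure D1:**
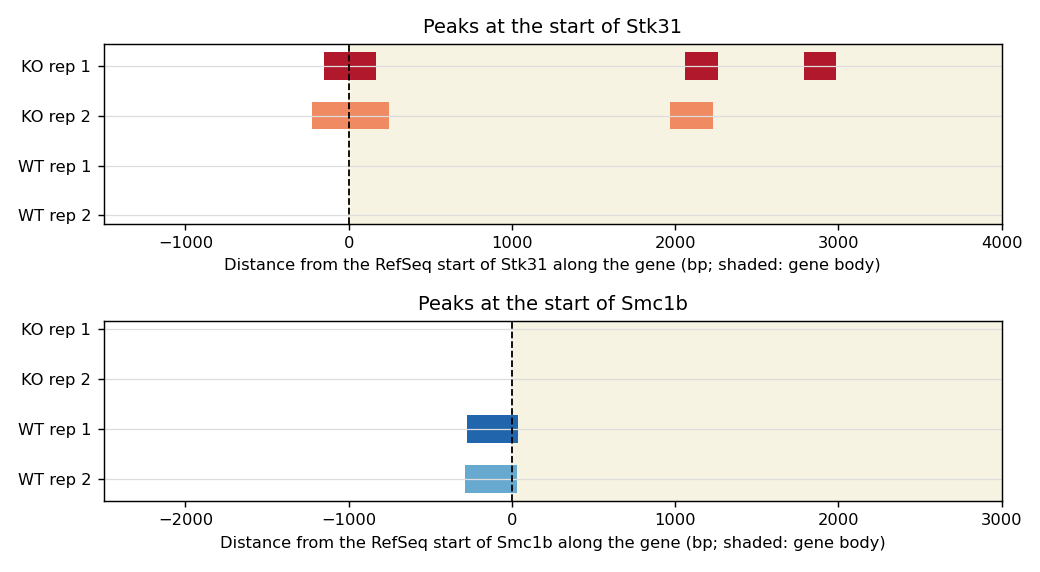
Peaks of each library around the RefSeq starts of Stk31 and Smc1b, as distance from the start along the gene in bp (dashed line, start; shading, gene body; bars, peaks). Stk31 has peaks in the KO libraries and none in WT, and Smc1b has a start peak of 317 and 319 bp in the WT libraries and none in KO.

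The base pairs under peaks in each gene and 5 kb on either side were compared across all genes with limma, on log2(covered bp + 100). Of 17236 genes with a peak in at least 1 list, 10 were higher in KO (0.058%) and 41 were lower (0.238%) at an adjusted p under 0.05, 0.296% in all. Stk31, with 722 and 733 bp in KO and 0 and 0 bp in WT, was the only called gene of the set and ranked first of all genes by p (limma, adjusted p = 0.0258). Among the 10 genes higher in KO its mean of 727.5 bp was the highest, the next being 447.5 bp. Its fitted log2 difference was 3.05 (SE 0.0593), a value that depends on the 100 bp added, since WT is listed at 0.

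The call at Stk31 rests on close KO totals, 722 and 733 bp, beside WT lists with no peak. The test used the same peaks that make Stk31 a gene with KO peaks alone, so passing it is no separate support. The KO lists did not repeat each other peak by peak. The total of KO replicate 1 includes a 201 bp peak that KO replicate 2 lacks, and the peaks both lists hold differed in width. Of the 51 called genes, 50 had no covered base pair in either list of a genotype, where replicates have no spread. The call was lost with 500 bp added (adjusted p = 0.241) and without each library in turn (adjusted p 0.0593 to 0.247), and it stayed after quantile normalization (adjusted p = 0.0479), which left 2 genes higher and 0 lower.

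**Figure D2:**
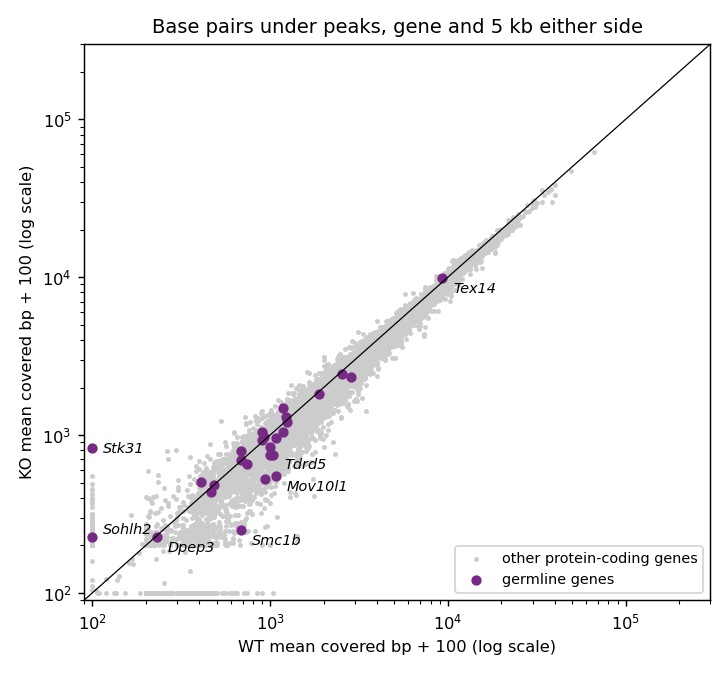
Mean base pairs under peaks in KO (vertical) against WT (horizontal) for each protein-coding gene and 5 kb on either side, plus 100 bp, both axes logarithmic, with the germline genes in purple and the line of equality. Stk31 lies at the WT floor with a KO mean of 727.5 bp, while most of the germline genes lie near the line.

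Over the whole set the genotypes had the same mean number of members with a peak within 1 kb of a gene end. There were 12 such members in KO replicate 1, where 62.8% of all genes had a gene-end peak, and 12 in KO replicate 2 (65% of all genes). WT replicate 1 had 13 (65.4%) and WT replicate 2 had 11 (65.1%), so WT spanned the KO values. The mean was 12 in each genotype (difference 0, exact permutation p = 1, two-sided; the smallest p for 2 against 2 is 0.333). Peaks in the genes and 5 kb on either side numbered 62 ± 0 in KO and 63 ± 1.41 in WT (SD, n = 2 each, exact permutation p = 1). They covered 31190.5 ± 1207 bp in KO and 32202.5 ± 1036 bp in WT (SD, n = 2 each, exact permutation p = 0.667).

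Presence at a gene end was compared gene by gene. Stk31 was the 1 member of 35 with a gene-end peak in the KO lists alone, a pattern found at 0.146% of all protein-coding genes. Smc1b was the 1 member with the opposite pattern, found at 0.471% of all genes. A further 10 members had a gene-end peak in all 4 lists, against 62% of all genes, and 20 had none in any list, against 33.2%. The other 3 were called in 1 or 2 lists that followed no genotype.

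**Figure D3:**
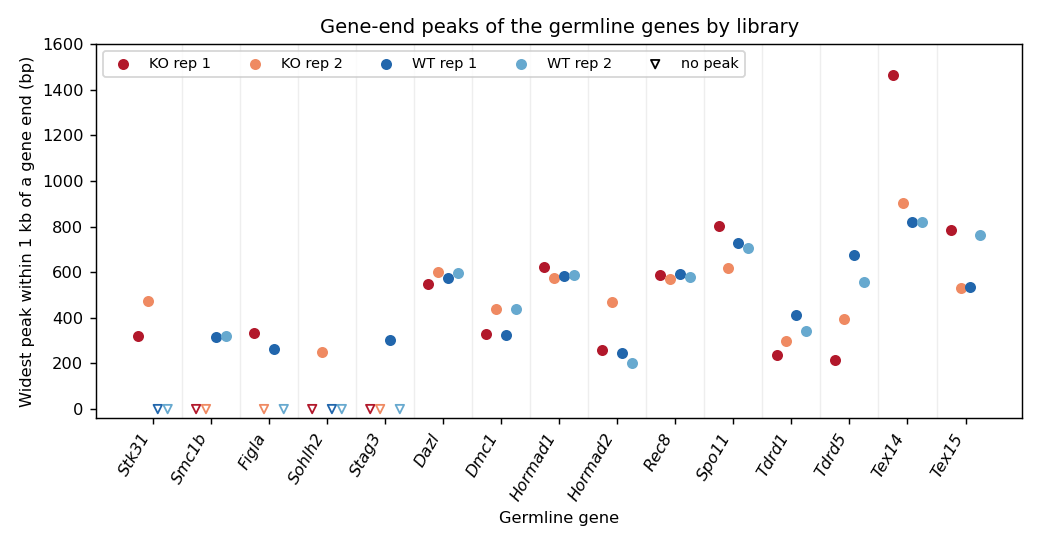
Widest peak within 1 kb of a gene end, in bp, for the 15 germline genes with such a peak in at least 1 library (filled points, libraries; open triangles, no peak). Stk31 has points in KO and triangles in WT, Smc1b the reverse, and 10 genes have a point in all 4 libraries.

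Among the meiotic cohesin and chromosome axis genes, Smc1b, which encodes a cohesin subunit of meiotic chromosomes, had peaks of 317 and 319 bp over its start in WT and none in KO. This region (chromosome 15, 85131917 to 85132242) also overlaps the start of the neighbouring gene Ribc2, read in the opposite direction, so the peak cannot be given to either gene. Ribc2 itself was among the genes lower in KO (0 and 0 bp in KO, 317 and 319 bp in WT, limma, adjusted p = 0.0258). Its covered base pairs are this same peak, listed in WT alone, so passing the test is no separate support. Over the whole of Smc1b and 5 kb on either side, 0 and 299 bp were covered in KO and 602 and 575 bp in WT. Both KO values were below both WT values, but the KO libraries differed from each other, and the difference was not called (limma, log2 difference -1.79, SE 0.757, adjusted p = 0.71).

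The other axis and cohesin genes had a peak in all 4 lists at or near the gene, which for Hormad1 lay outside it. Rec8, the meiosis-specific kleisin subunit of cohesin, had a start peak of 587 and 570 bp in KO and 590 and 577 bp in WT. Hormad2, which encodes a protein of unsynapsed chromosome axes, had a start peak of 261 and 471 bp in KO and 246 and 204 bp in WT. Both KO values of Hormad2 were above both WT values, and its covered base pairs did not pass the test (limma, adjusted p = 0.759). Hormad1, also a protein of chromosome axes, had no peak in any list within 1 kb of its start. Its 1 region (621 and 574 bp in KO, 582 and 588 bp in WT) lay 629 bp beyond its far end and reached Golph3l. Stag3, a meiotic cohesin subunit, had a peak next to its RefSeq start in all 4 lists (750 and 730 bp in KO, 745 and 746 bp in WT), touching Gpc2, and a further peak of 304 bp at its low-coordinate end in WT replicate 1 alone.

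Both recombination genes were open at a gene end in all 4 libraries. Spo11, whose product cuts DNA to start meiotic recombination, had a peak of 803 and 618 bp in KO and 728 and 707 bp in WT, with the genotypes overlapping. A smaller gene-end peak of 296 bp beside it was in KO replicate 1 alone. A further region inside Spo11, 172991490 to 172991794 on chromosome 2, was called in the WT lists at 280 and 239 bp and in neither KO list, and the nearest KO peaks were 7919 and 7935 bp away. Dmc1, the meiotic recombinase, had a start peak of 330 and 437 bp in KO and 326 and 438 bp in WT, with the genotypes overlapping. Its covered base pairs had nearly equal means (log2 difference 0.01, SE 0.185, limma, adjusted p = 0.997).

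The 4 synaptonemal complex genes had no peak anywhere in the gene or 5 kb on either side in any library. These are Sycp1, which encodes the transverse filament, Sycp2 and Sycp3, of the lateral elements, and Syce1, of the central element. Mael, Tex101, Meioc and Taf7l were likewise without a peak, making 8 of 35 members (22.9%), against 21.3% of all genes. These 8 could not enter the comparison of covered base pairs, which 27 members did.

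Among the piRNA pathway genes, Stk31 apart, peaks at a gene end were found at Tdrd1 and Tdrd5 and at none of the others. Tdrd5, a Tudor protein of germ cell granules, had a start peak of 216 and 396 bp in KO and 675 and 556 bp in WT, so both KO peaks were the narrower. With the peak inside the gene, 590 and 714 bp were covered in KO and 995 and 888 bp in WT, a difference that did not pass (limma, log2 difference -0.47, SE 0.121, adjusted p = 0.593). Tdrd1, a Tudor scaffold for PIWI proteins, had a gene-end peak of 236 and 300 bp in KO and 414 and 342 bp in WT, at its end away from the start. Its covered base pairs, 2082 and 2378 in KO and 2845 and 2664 in WT, were also lower in both KO libraries and did not pass (limma, adjusted p = 0.66). These include a region that begins 4051 bp beyond Tdrd1 and touches Vwa2, counted only as far as 5 kb from the gene. Its full peak widths were 352 and 900 bp in KO and 986 and 1080 bp in WT.

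Mov10l1, the RNA helicase that feeds precursors into the piRNA pathway, had 422 and 474 bp covered in KO and 859 and 1104 bp in WT. Both KO values lay below both WT values, without passing the test (limma, log2 difference -0.97, SE 0.147, adjusted p = 0.421). A region called at 262 and 404 bp in WT and not in KO lay beyond the gene, 4056 bp from its end and 151 bp from an end of Panx2. A KO replicate 2 peak was 428 bp away. The region inside Mov10l1 that every list held was 422 and 360 bp in KO and 397 and 392 bp in WT, with the genotypes overlapping. Piwil4 and Tdrd9 each had 4 regions, all called in every list. Piwil4, a nuclear PIWI protein, had a peak over the inner of its 2 RefSeq starts at 774 and 859 bp in KO and 905 and 888 bp in WT. It had 2325 and 2368 bp covered in KO and 2457 and 2400 bp in WT. Tdrd9, a helicase with a Tudor domain, had 1708 and 1712 bp in KO and 1908 and 1661 bp in WT. A Tdrd9 region outside the gene touched an end of Atp5mpl. Asz1, Piwil1, Piwil2 and Tdrd6 had 1 to 2 regions each, none at a gene end, and Mael had none. A Tdrd6 region outside the gene lay 253 bp from an end of Pla2g7.

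Tex14, needed for the bridges that join germ cells, held 16 of the 74 merged regions, more than any other member, 11 of which every list held. Its start region was 1028 and 902 bp wide in KO and 821 and 818 bp in WT. The merged region also overlaps the start of Rad51c, a DNA repair gene read in the opposite direction, which the WT peaks did not reach. The KO peaks reached further towards Tex14, since they ran to 87405025 and 87404979, and the WT peaks to 87404861 and 87404845. One small region inside the gene, 87542380 to 87542608 on chromosome 11, was called in the KO lists at 229 and 219 bp and not in WT, but WT peaks lay 292 and 293 bp away. Covered base pairs over all of Tex14 were 10674 and 8867 in KO and 9444 and 8994 in WT, with the genotypes overlapping. Tex15, which acts in the silencing of transposons in male germ cells, had a gene-end peak of up to 784 and 529 bp in KO and 536 and 761 bp in WT. Tex11, an X-linked meiosis gene, had 2 regions in every list, neither at a gene end.

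Of the regulators of germ cells, Dazl, an RNA-binding protein that controls translation, had a peak 434 bp inside its start, at 550 and 599 bp in KO and 575 and 595 bp in WT. Sohlh2, a transcription factor of early germ cells, had a peak of 249 bp over its start in KO replicate 2 alone. Figla, a transcription factor of oocytes, had a peak at its far end in KO replicate 1 (335 bp) and WT replicate 1 (263 bp). Ddx4, the germ cell RNA helicase also called Vasa, had 2 regions inside the gene in all 4 lists and none near its ends. Brdt, a bromodomain protein of spermatids, had 1 region inside the gene in all 4 lists, away from its ends. Slc25a31, a testis form of the ADP/ATP carrier, had 1 region in all 4 lists. It lay outside the gene, 3181 bp before its start and 36 bp from an end of Intu. Dpep3, a dipeptidase gene, had 1 narrow region in KO replicate 2 and WT replicate 2.

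Counted as merged regions, the members and 5 kb on either side held 74, of which 50 (67.6%) were called in all 4 lists, against 68.2% at all genes. There were 3 regions called in KO only, 2 at Stk31 and 1 at Tex14, against 1.11% of regions at all genes. Another 3 were called in WT only, at Smc1b, Spo11 and Mov10l1, against 2.66% at all genes. Of the 18 regions at a member's gene end, 3 lay as near to the end of another gene. Over the 27 genes tested, the median log2 difference in covered base pairs was -0.05, against -0.06 for all genes, with 12 members higher and 15 lower in KO. The lower share was 55.6% of these members and 71.8% of all genes tested. At an unadjusted p under 0.05 there were 4 members (Stk31, Mov10l1, Tdrd5 and Tdrd1), and 7.49% of all genes tested.

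The promoters were set beside those of all genes. RefSeq entries were found for 30 members, and Tdrd6, Spo11, Tex11, Tex15 and Piwil2 are named only. The observed over expected CpG ratio in the 300 bases around the start (250 before, 50 after) had a median of 0.714 in the members and 0.577 in all 17492 genes with an entry. By this ratio 21 members were CpG-rich (0.6 and over), 8 were in the middle class and 1, Sycp2, was low. Stk31 had a ratio of 0.908, Smc1b 1.08 and Tdrd5, the highest, 1.11.

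CpG-rich germline promoters were mostly without a peak in either genotype. A peak lay over the 300 bases in all 4 lists at 4 of 21 CpG-rich members (19.1%: Rec8, Stag3, Tdrd5 and Tex14), against 7729 of 8466 CpG-rich promoters of all genes (91.3%). No list had a peak there at 15 of the 21 (71.4%), against 5.59% of all such promoters. Among these 15 were Ddx4, Sycp1, Taf7l, Mael, Brdt and Dazl. Within 1 kb of the RefSeq start, 8 of 30 members had a peak in all 4 lists (62.4% of all genes), 19 had none (33.6%) and 1, Smc1b, had WT peaks alone (0.412%). By the same 1 kb, a start peak in the KO lists and not in WT was found at 2 of the 8466 CpG-rich genes of the whole table, Stk31 and Olfr750, an olfactory receptor gene. Over all CpG classes that pattern was found at 16 of 17492 genes (0.0915%). By a peak over the 300 bases instead, the CpG-rich genes with KO peaks alone were Stk31 and Rad51c. At Rad51c every list had a peak in the region shared with the Tex14 start, and the WT peaks stopped short of the 300 bases. Rad51c is thus unlike Stk31, which had no WT peak nearby. The opposite pattern over the 300 bases was found at 34 CpG-rich genes (0.402%).

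**Figure D4:**
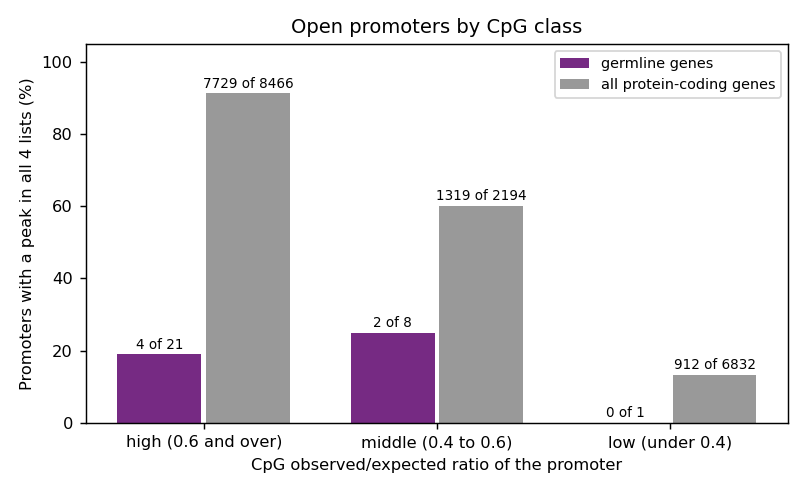
Share of promoters with a peak in all 4 lists (percent), by CpG observed/expected ratio, for germline genes (purple) and all protein-coding genes (grey), with numbers above the bars. In the CpG-rich class 4 of 21 germline promoters were open in every list, against 7729 of 8466 promoters of all genes.

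The E-box CACGTG, searched on both strands, was present in 14 of 30 member promoters (46.7%) and in 7.91% of all promoters. Among CpG-rich promoters it was in 12 of 21 members (57.1%) and 11.5% of all genes. Of the 15 CpG-rich members without a peak over the promoter, 10 had it, against 9.73% of the 473 such promoters of all genes. Stk31, Sycp1, Sycp3, Taf7l, Mael, Ddx4 and Hormad1 were among the members with the E-box. An E2F-type sequence, GGCGGGAA, was in 4 members (Ddx4, Hormad1, Slc25a31 and Tex14) and in 2.94% of all promoters, and the cyclic AMP response sequence TGACGTCA was in 0 of 30 members and 2.33% of all promoters. These are matches of letters in a short window and do not show binding.

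Other germline genes, from a list of 42 of which 41 matched, had a gene-end peak at 21 and 24 genes in KO and at 19 and 19 in WT. Over all genes the KO libraries had shares of 62.8% and 65%, and the WT libraries 65.4% and 65.1%. Counts of this list were higher in KO, but its median log2 difference in covered base pairs was -0.08, against -0.06 for all genes. Syce3, Henmt1 and Msh4 had a gene-end peak in KO replicate 2 alone and Rnf17 in KO replicate 1 alone, genes picked out after their values were seen. Gene-end peaks were in all 4 lists at 18 of them, such as Exd1, Gdf9, Hfm1, Lhx8 and Mei1. Dnd1, an RNA-binding protein that protects germ cells (201 and 381 bp), and Bhmg1, also called Meiosin, a transcription factor that starts meiosis (639 and 233 bp), had a gene-end peak in the KO lists and not in WT. These 2 of 41 stand beside 0.146% of all genes, and 0 of 41 had the opposite pattern. Unlike Stk31, both had WT peaks elsewhere in the gene or the 5 kb on either side. The 201 bp at Dnd1 is the smallest width in the lists, and these genes were listed with earlier results of these data known. In covered base pairs 0 of the 37 tested passed in either direction and 1 had an unadjusted p under 0.05 (limma, smallest adjusted p = 0.657).

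Genes for the known repressors of germline promoters had the same counts in each library. Of 23, a gene-end peak was found at 20 in every library, among them Atf7ip, Cbx1, Cbx3, Cdca7 and Dnmt3b, against 62% of all genes in all 4 lists. The 3 without one in any list were Zfp42, Dnmt1 and Dnmt3a. This covers gene ends alone, since 22 of the 23 had a peak in the gene or 5 kb on either side. Dnmt3a itself, the gene named as deleted, had 9049 and 10726 bp covered in KO and 10238 and 9751 bp in WT, with the genotypes overlapping, and these peaks do not check the deletion. In covered base pairs 0 of the 22 tested passed and 1 had an unadjusted p under 0.05 (limma, smallest adjusted p = 0.618). E2f6, which encodes the E2F family repressor, had gene-end peaks of 720 and 695 bp in KO and 758 and 835 bp in WT.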

How the data were processed

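ATAC-seq peak lists of 2 KO and 2 WT libraries were used, grouped by the sample titles. Per the submitters' processing notes, cutadapt, Bowtie2, Picard and mm10 were used. The peak caller, its threshold and any transposase shift are not given in the sources used here. The deposited lists, 1 per library, give chromosome, start, end and width in bp, per the file headers, so no read counts or depth were available and no count model was used. Peaks on other sequences (92, 134, 134 and 124) were left out.

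Gene spans came from RefSeq on GRCm38.p6, without exons. A gene-end peak overlaps 1 kb around either end of the span. Peaks of the 4 lists overlapping by 1 bp were joined into merged regions. Library values were compared by exact permutation tests and covered base pairs by limma with Benjamini-Hochberg adjustment over 17236 genes, at 0.05. The scripts were tested on simulated data.

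The members and lists were chosen with earlier results of these data known. Named genes were members with a gene-end peak, members with a region of a single genotype, and the 5 (6 with ties) with most regions. In the context lists they were genes called in a single genotype and up to 5 called in all lists, in alphabetical order. Promoters were to be shown for every member with a gene-end peak and up to 4 without. Those printed, and E2f6, Olfr750, Rad51c, Dnmt1, Zfp42 and Ribc2, were chosen after their values were seen. Alternatives covered windows, flanks, widths, list length, pseudocount, filter, normalization, pairing and leaving out each library. The fits used limma 3.58.1 in R 4.3.3, and all else scipy 1.17.1, pandas 2.3.3 and numpy 2.4.6 in Python 3.11.15.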

Additional observations from a re-analysis of the deposited data

How the results depend on the processing

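Stricter calls were by width, since the lists hold no score. With narrow peaks (under the list's median width) left out, 0 members and 0 regions were KO only, 1 member (Tdrd5) and 1 region were WT only, and Stk31 and Smc1b lost their gene-end patterns. With lists of equal length, 2 members were KO only and 1 region was WT only. Stk31 and Smc1b kept their patterns in 9 of 10 alternatives each. Leaving out a library only loosens the rule, so it could not remove a pattern. Nor could a change of window remove those of Stk31 and Smc1b, whose peaks lie over the start. The nearest WT peaks were 20945 and 27242 bp from that of Stk31. The nearest KO peaks were 19230 and 19116 bp from that of Smc1b. Lists of equal length drop only the narrowest peaks of the longer lists, and these start peaks were wide enough to stay. For both genes only leaving out narrow peaks could thus test the pattern, and both patterns were then lost. The difference in peaks at the members, -1, turned to 0.5 with the spans alone, 0.5 with 10 kb on either side and 2 with equal list length. Called genes numbered 51, and 0 with a 500 bp pseudocount, 9 with no filter, 2 with quantile normalization and 0 with the replicate block. The cause of these changes was not tested.

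Leaving out each library gave 1 to 2 members KO only, 1 to 2 WT only, 3 to 7 regions KO only, 4 to 6 WT only, a difference of -1 to 1 in members with a gene-end peak, -2 to 0 in peaks and -1865.5 to -158.5 in covered base pairs, and 0 called genes each time. The lone library of a genotype was then taken to vary like the others.

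Whether libraries with the same replicate number were handled together is not stated in the labels. Deviations from the genotype mean correlated at -0.0745 across genes between KO replicate 1 and WT replicate 1, which cannot settle it. With the replicate block the differences were 0, -1 and -1012 (exact sign-flip p = 1, 1 and 0.5), and Stk31 had an adjusted p of 0.238 (limma). Over all its alternatives the adjusted p of Stk31 ran from 0.00264 to 0.247 and its log2 difference from 1.30 to 6.21, always higher in KO. Read depth and peak strength are unknown, which limits every statement of absence.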

Other observations

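Of all 21887 protein-coding genes, 32 had a gene-end peak in the KO lists and not in WT, and 9 of these had no WT peak in the gene or 5 kb on either side. Beside Stk31 the 9 were 4930447C04Rik (292 and 406 bp), Adam32 (324 and 279 bp), Cort (261 and 443 bp), Hoxc5 (230 and 201 bp), Hspb3 (323 and 455 bp), Krt23 (352 and 226 bp), Tmem150b (407 and 488 bp) and Zglp1 (259 and 283 bp). In covered base pairs Stk31, Zglp1, Tmem150b, Adam32 and Hoxc5 were called higher in KO (limma, adjusted p 0.0258 to 0.0341), and Hspb3, 4930447C04Rik, Krt23 and Cort did not pass (limma, adjusted p 0.0959 to 0.232). The 9 were picked by the same peaks that the test used, so passing it is no separate support. With no WT base pair covered, passing depended on the size of the KO values and how close they were. With the opposite pattern there were 103 genes, 23 of them with no KO peak in the gene or 5 kb on either side.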
